A study of Mus musculus with 4 samples.

Results

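Hypoxia-induced genes that lie outside glycolysis were examined in mouse induced regulatory T (iTreg) cells that grew with or without added iron. The set holds 30 genes chosen by symbol as known to rise in low oxygen, with glycolytic genes and the regulators of the oxygen response itself left out, of 47729 gene rows in all. Each of the 30 symbols matched 1 Ensembl gene, and 29 genes passed the filter on low counts. The exception was Bhlhe41, a transcriptional repressor related to Bhlhe40, with 0 and 4 counts in Mock replicates 1 and 2 and 0 in both FeSO4 libraries.

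Both groups were CD4 T cells from the spleen of C57BL/6 mice, stimulated through CD3 and CD28 in a medium of IL-2 at 100 U/mL and TGF-β at 5 ng/mL, with IL-4 and IFNγ blocked by antibodies (5 µg/mL of each). For 4 days the FeSO4 group also received ferrous sulfate at 50 µM and the Mock group PBS. Each group had 2 libraries, and the labels give no age for the mice. The comparison asks which transcripts differ when iTreg cells are given iron.

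Reads in genes numbered 39747890 and 40859178 for Mock and 35183187 and 37735336 for FeSO4, and a count of 0 allows up to 3 counts, or 0.0717 to 0.0875 CPM (counts scaled to a common library size). Of the T cell markers, Cd3e, Cd4 and Il2ra lay between 303 and 1585 CPM in every library, whereas Foxp3 was at 586 and 693 CPM in Mock and at 375 and 471 CPM in FeSO4. Mock replicate 1 stood apart by some markers of other cells. It held 164 counts of Lyz2 (myeloid) and 156 of Igkc (B cell), against 0 to 8 in the other libraries, and Csf1r (myeloid) had reads there alone. Not all markers followed. Adgre1 (myeloid) had 8 counts there, against 28 in Mock replicate 2 and 12 and 29 in FeSO4. Cd68 (myeloid) had 72 and 68 counts in Mock and 50 and 57 in FeSO4. The summed level of the 6 myeloid markers, nearly all of it Cst3, was 89.5 to 99.7 CPM in Mock and 117 to 120 CPM in FeSO4, that of the 5 B cell markers, nearly all of it Ighm, 161 to 172 and 247 to 277 CPM. That of the 3 matched erythroid markers was 20.7 to 25.8 CPM in Mock against 34.3 to 39.6 in FeSO4, and that of the 3 NK markers, all of it Klrk1, 0.714 to 0.765 against 2.19 to 2.24. The part of Foxp3 and of these markers in the results was not tested, and in bulk RNA fewer cells of a type and less RNA per cell cannot be told apart.

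Hypoxia-inducible factors (HIF) are pairs of an oxygen-labile α subunit and the stable partner ARNT. Prolyl hydroxylases that need oxygen, iron and 2-oxoglutarate mark the α subunit, and the VHL complex then has it degraded, so that the factor accumulates when oxygen or iron is short. HIF binds short DNA elements with the core ACGTG or GCGTG and raises genes for glycolysis, for mitochondrial turnover, for blood vessel growth, for pH control and for collagen processing. In T cells, antigen receptor signaling also raises HIF-1α. Several of its target genes encode enzymes that themselves need iron and 2-oxoglutarate, such as the collagen hydroxylases and the histone demethylases with a JmjC domain.

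Of the 29 tested members, 12 rose and 5 fell in FeSO4 with adjusted p below 0.05 (edgeR quasi-likelihood test, Benjamini-Hochberg over all genes). These are 41.4% and 17.2% of the members, where 10.9% of all 13732 genes tested were higher and 9.17% were lower. The members were chosen with earlier results of these data known, so the difference between these shares is a description and was not tested. The higher genes were Bnip3, Ak4, Higd1a, Vegfa, Stc2, Mif, P4ha1, Plod2, P4hb, Ero1l, Mxi1 and Cited2. The lower genes were Adm, Car12, Plod1, Bhlhe40 and Ddit4. The median log2 fold change was 0.23 over the members and -0.00052 over all genes, and 19 of the 29 had a positive value. In 16 members both FeSO4 libraries lay above both Mock libraries, in 8 both lay below, and in 5 the groups overlapped. Over all genes tested, 30.1% lay above and 29.4% below in this way.

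Adm reached the minimum of the filter (0.258 CPM in at least 2 libraries) through Mock alone and Ak4 through FeSO4 alone, so each passed through the group where it is high. Among the 27 members that reached it in both groups, 11 were higher (40.7%) and 4 were lower (14.8%), where 11.7% and 9.3% of 12441 genes were.

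The counts of called members depended on the gene filter and on single libraries. Calls over all genes also fell under the widest filter and with each library left out. With every gene of at least 1 count tested, 828 of 22164 genes were called, against 2750 of 13732 in the main fit. Of the members, 4 were then higher (Bnip3, Mif, P4hb and Plod2) and 0 were lower. Those 4 were also the members that kept their call in all 14 other fits. Without FeSO4 replicate 2, 6 members were higher and 2 lower, and the median was 0.058. Without FeSO4 replicate 1, 11 were higher and 1 was lower.

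**Figure D1:**
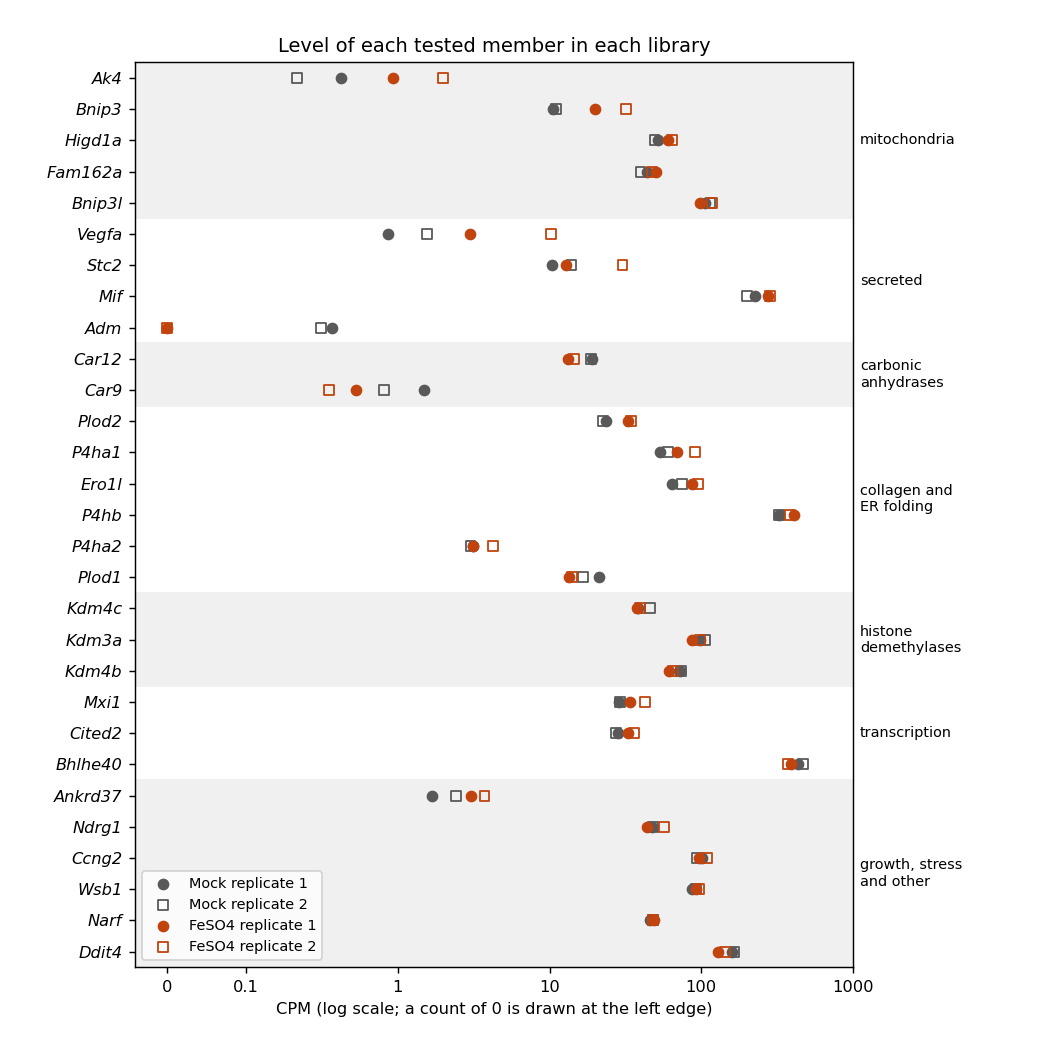
Level of each tested member in each library, in CPM on a log axis, ordered by role (right) and within a role by log2 fold change. Points are single libraries, gray for Mock and red for FeSO4, filled for replicate 1 and open for replicate 2. Vegfa, Bnip3 and Ak4 show the widest distance upwards, and Adm is at 0 in both FeSO4 libraries.

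The promoters were searched for the HIF core because the members were listed as genes of one response and yet moved both ways. RefSeq (GRCm38.p6) gave a promoter for 25 of the 30 members. The 250 bases before its start site were read for ACGTG and GCGTG on both strands. In Car12, Ankrd37, Mxi1, P4ha1, Kdm3a, Wsb1 and Ak4 this start site lies inside the RefSeq span of the gene. Their windows overlap that span in part or in full. An ACGTG match and its mirror image on the other strand can overlap in CACGTG and then count as 2. At least 1 match was present in 20 of 25 members (80%), in 38.6% of 27025 RefSeq promoters and in 57.7% of the 8651 promoters whose gene was tested here. By call, 8 of 11 higher (72.7%), 3 of 4 lower (75%) and 8 of 9 uncalled members (88.9%) held one. The windows below belong to a higher gene with the core at 5 positions (Bnip3), another with 3 (Ero1l), a higher gene with none (Vegfa), a lower gene with 2 (Adm) and an uncalled gene with 1 close to its start (Car9). Each reads 5′ to 3′ on the strand of the gene and ends at the base before the start site, and capitals mark the matched letters, which on the opposite strand read CACGT or CACGC.
Bnip3 (chr7:138909507-138909756, minus strand): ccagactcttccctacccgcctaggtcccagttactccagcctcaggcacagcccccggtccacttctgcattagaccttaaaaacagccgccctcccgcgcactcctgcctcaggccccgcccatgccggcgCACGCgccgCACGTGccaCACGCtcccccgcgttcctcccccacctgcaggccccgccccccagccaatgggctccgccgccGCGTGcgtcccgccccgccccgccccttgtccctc
Ero1l (chr14:45318573-45318822, minus strand): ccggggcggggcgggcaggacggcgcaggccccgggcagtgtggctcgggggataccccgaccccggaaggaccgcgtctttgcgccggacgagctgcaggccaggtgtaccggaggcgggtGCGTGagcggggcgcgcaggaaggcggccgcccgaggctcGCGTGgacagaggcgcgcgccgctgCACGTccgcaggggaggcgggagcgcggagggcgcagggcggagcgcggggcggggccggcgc
Vegfa (chr17:46032378-46032627, minus strand): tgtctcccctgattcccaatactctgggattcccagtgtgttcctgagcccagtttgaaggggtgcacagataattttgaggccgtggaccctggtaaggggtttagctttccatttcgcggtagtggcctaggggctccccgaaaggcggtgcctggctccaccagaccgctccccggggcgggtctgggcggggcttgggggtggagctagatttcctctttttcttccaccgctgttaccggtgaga
Adm (chr7:110627407-110627656, plus strand): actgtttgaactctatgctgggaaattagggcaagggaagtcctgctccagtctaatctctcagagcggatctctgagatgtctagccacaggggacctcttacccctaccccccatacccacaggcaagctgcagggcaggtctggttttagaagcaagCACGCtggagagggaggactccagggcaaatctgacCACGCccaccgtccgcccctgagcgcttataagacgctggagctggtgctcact
Car9 (chr4:43506776-43507025, plus strand): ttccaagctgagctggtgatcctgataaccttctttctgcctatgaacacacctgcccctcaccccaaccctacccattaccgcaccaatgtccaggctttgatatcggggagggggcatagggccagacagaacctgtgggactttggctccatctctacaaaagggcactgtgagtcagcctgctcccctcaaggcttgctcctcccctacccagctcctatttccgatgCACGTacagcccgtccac
In Bnip3 the matches begin 117, 108, 107, 99 and 35 bases before the start, in Ero1l 128, 88 and 63, in Adm 90 and 54, and in Car9 18. The absence of a match in Vegfa says only that these letters are not in this window.

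Among the genes of mitochondria and mitophagy, 3 of 5 rose, 0 fell and the median log2 fold change was 0.30. Bnip3 encodes an outer membrane receptor that leads mitochondria to autophagy. It was at 10.6 and 11.0 CPM in Mock and at 20.0 and 32.0 CPM in FeSO4. Both FeSO4 libraries were clearly above Mock, the second more so than the first. The log2 fold change was 1.27 ± 0.17 (SE, adjusted p = 7.96e-05), the smallest p of the 29 tested members, and it stayed between 0.89 and 1.57 with any 1 library left out. Bnip3 (ENSMUSG00000078566) lies on chromosome 7 at 138890836 to 138909506 (GRCm38.p6).

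Bnip3l, the paralog that clears mitochondria from maturing red cells, was at 105 and 115 CPM in Mock and at 98.0 and 118 CPM in FeSO4. Its groups overlapped, and it was not called (-0.03 ± 0.08 on the log2 scale, SE, adjusted p = 0.874). RefSeq lists a pseudogene of it, Bnip3l-ps, and reads with several alignments were not counted. The ratio of Bnip3 to Bnip3l counts, which no library scaling can alter, was 0.101 and 0.0959 in Mock and 0.204 and 0.270 in FeSO4, a 2.39-fold difference of the geometric means. An exact permutation test of 2 against 2 libraries gave p = 0.333 (two-sided), the smallest it allows.

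Ak4 encodes a mitochondrial adenylate kinase. It had 17 and 9 counts in Mock and 32 and 73 in FeSO4 (0.419, 0.215, 0.934 and 1.97 CPM), so that it was scarce in every library and higher in both FeSO4 libraries. The log2 fold change was 2.21 ± 0.56 (SE, adjusted p = 0.0102), and the call was lost without Mock replicate 2 (1.81, adjusted p = 0.0784) or FeSO4 replicate 2 (1.56, adjusted p = 0.218). With a minimum of 10 counts in every library it was not tested. Higd1a, a small protein of the inner membrane tied to respiratory supercomplexes, rose from 51.8 and 49.2 to 60.0 and 64.3 CPM. Its log2 fold change was 0.30 ± 0.08 (SE, adjusted p = 0.0141), and leaving out Mock replicate 2 or FeSO4 replicate 2 ended the call (adjusted p up to 0.130). Fam162a is a mitochondrial protein linked to cell death in low oxygen. It was at 43.8 and 39.8 CPM in Mock and at 50.5 and 47.4 CPM in FeSO4 and was not called (0.23 ± 0.09, SE, adjusted p = 0.0774). With a replicate block in the edgeR fit its adjusted p was 0.0361, but the labels do not say that a replicate number marks a pair.

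Of the secreted factors, 3 of 4 rose and 1 fell. Vegfa, the growth factor of blood vessels, had 35 and 65 counts in Mock and 102 and 378 in FeSO4. In CPM these were 0.862, 1.55, 2.98 and 10.2. Both FeSO4 libraries exceeded Mock, but they differed from each other 3.43-fold. The log2 fold change of 2.46 ± 0.48 (SE, adjusted p = 0.00165) went to 1.30 when FeSO4 replicate 2 was left out and to 3.07 when FeSO4 replicate 1 was. With a robust estimate of the spread the call was lost (adjusted p = 0.251). Vegfa (ENSMUSG00000023951) lies on chromosome 17 at 46016993 to 46032377.

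Stc2, a secreted glycoprotein induced by stress of the endoplasmic reticulum (ER), was at 10.4 and 14.0 CPM in Mock and at 12.9 and 30.3 CPM in FeSO4. FeSO4 replicate 1 lay between the Mock libraries, and FeSO4 replicate 2 alone was high. The log2 fold change of 0.83 ± 0.26 (SE, adjusted p = 0.0299) went to 0.078 without that library (adjusted p = 0.841), and the call was also lost without Mock replicate 1 (0.63, adjusted p = 0.121). Neither DESeq2 (adjusted p = 0.421) nor limma-voom (adjusted p = 0.0809) called Stc2, and 6 of 14 other fits did not. Stc2 was the 1 called member whose groups overlapped.

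Mif, a cytokine-like protein that T cells store and release, had the highest level per length of all 30 genes in Mock (386 CPM per kb of exon, mean of 2). It stood at 226 and 201 CPM in Mock and at 278 and 285 CPM in FeSO4. The groups were well apart relative to their spread (log2 fold change 0.39 ± 0.07, SE, adjusted p = 0.00061), and the range with 1 library left out was 0.32 to 0.47. RefSeq names the pseudogenes Mif-ps, Mif-ps3 and Mif-ps7, so part of its reads may not have been counted. Mif (ENSMUSG00000033307) lies on chromosome 10 at 75859353 to 75860277.

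Adm encodes adrenomedullin, a peptide that widens blood vessels. It had 15 and 13 counts in Mock (0.370 and 0.311 CPM) and 0 in both FeSO4 libraries. Against the limit of 3 counts per library it was at least 4.04-fold lower in FeSO4 (adjusted p = 0.0182), with the limit that it passed the filter through Mock alone. The call was lost without either FeSO4 library (adjusted p = 0.206 and 0.173), Adm did not pass the filter without Mock replicate 1, and DESeq2 gave no adjusted p for it. The myeloid marker Lyz2 had 164 and 8 counts in Mock and was also at 0 in both FeSO4 libraries, and its part in the result was not tested.

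Neither carbonic anhydrase rose. Both are membrane enzymes that turn carbon dioxide into bicarbonate and acid outside the cell, and both had FeSO4 libraries below Mock. Car12 was at 19.0 and 18.9 CPM in Mock and at 13.2 and 14.5 CPM in FeSO4, which is -0.45 ± 0.12 as a log2 fold change (SE, adjusted p = 0.0159). Its call was lost without Mock replicate 2 or FeSO4 replicate 1 (adjusted p up to 0.133). Car9, among the most widely used tissue markers of low oxygen, had 60 and 34 counts in Mock and 18 and 13 in FeSO4 (1.48, 0.813, 0.525 and 0.351 CPM). It did not pass the threshold (log2 fold change -1.38 ± 0.53, SE, adjusted p = 0.0763), although it did in other fits, among them that with a minimum of 10 counts in every library (adjusted p = 0.0394). The log2 fold change of Car9 was -0.90 without Mock replicate 1 and -1.75 without Mock replicate 2. Without FeSO4 replicate 1 it was -1.69, and without FeSO4 replicate 2 it was -1.11. Its exons overlap those of Gm12454. Car12 (ENSMUSG00000032373) lies on chromosome 9 at 66712296 to 66766845 and Car9 (ENSMUSG00000028463) on chromosome 4 at 43507026 to 43513729.

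By number, the group of collagen hydroxylation and oxidative folding in the ER had the most called members. Of its 6, 4 were higher and 1 was lower, with a median log2 fold change of 0.34. By share, the secreted factors (4 of 4) and the tested transcription factors and co-regulators (3 of 3) were ahead. The 4 of 4 include Adm, which passed the filter through Mock alone, and Stc2, whose groups overlapped. Over all genes tested, 10.9% were higher and 9.17% were lower. P4ha1 and P4ha2 encode alternative catalytic subunits of collagen prolyl 4-hydroxylase. P4ha1 rose from 53.3 and 60.7 to 69.4 and 91.1 CPM (log2 fold change 0.50 ± 0.11, SE, adjusted p = 0.00329). FeSO4 replicate 2 was the highest, and without it the log2 fold change was 0.29 and not called (adjusted p = 0.0693). P4ha2 was much scarcer, with 3.13 and 3.01 CPM in Mock against 3.15 and 4.24 CPM in FeSO4, and was not called (0.27 ± 0.26, SE, adjusted p = 0.496). The ratio of P4ha1 to P4ha2 counts was 17.0 and 20.2 in Mock and 22.0 and 21.5 in FeSO4.

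P4hb is the disulfide isomerase that also serves as the other subunit of that hydroxylase. It was at 325 and 324 CPM in Mock and at 408 and 386 CPM in FeSO4. The replicates were close within each group, and the log2 fold change was 0.29 ± 0.06 (SE, adjusted p = 0.00288). Ero1l (Ero1a in RefSeq), the oxidase that recharges disulfide isomerases, rose from 63.9 and 75.0 to 87.3 and 94.9 CPM. Its log2 fold change was 0.39 ± 0.08 (SE, adjusted p = 0.00348).

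The lysyl hydroxylases Plod1 and Plod2 moved in opposite directions. Plod2, which modifies the lysines at the ends of collagen chains, rose from 23.7 and 22.4 to 33.1 and 34.3 CPM (log2 fold change 0.55 ± 0.10, SE, adjusted p = 0.000868). Plod1, which acts on the collagen helix, fell from 21.1 and 16.7 to 13.4 and 14.0 CPM (-0.46 ± 0.14, SE, adjusted p = 0.0255). Plod2 kept its call with any 1 library left out, whereas Plod1 kept it only without Mock replicate 2. In counts, Plod2 exceeded Plod1 1.12-fold and 1.34-fold in Mock and 2.47-fold and 2.44-fold in FeSO4. The geometric means of this ratio differed 2.0-fold, with p = 0.333 in the exact permutation test (two-sided), again the smallest value 2 against 2 libraries can give. Plod2 (ENSMUSG00000032374) lies on chromosome 9 at 92539636 to 92608428 and Plod1 (ENSMUSG00000019055) on chromosome 4 at 147909753 to 147936776.

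**Figure D2:**
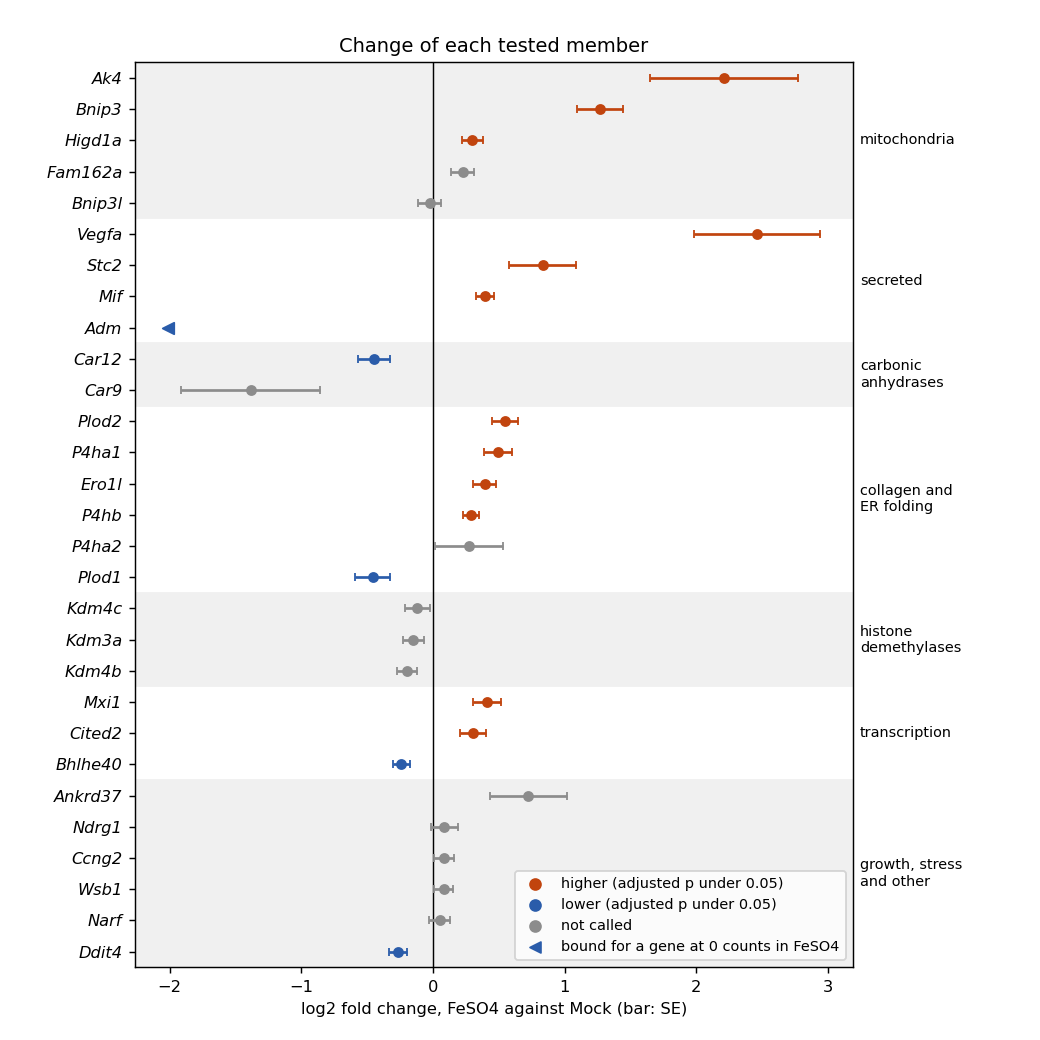
Log2 fold change of each tested member, FeSO4 against Mock, by role. Bars are the SE of the edgeR fit on 2 libraries per group, red and blue mark adjusted p under 0.05, and the triangle for Adm is its bound of -2.01. Plod2 (0.55) and Plod1 (-0.46) lie on opposite sides of 0, and the 3 histone demethylases lie just below it.

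None of the 3 histone demethylases was called in either direction by edgeR with TMM scaling and the group as its only term, by DESeq2 or by limma-voom, and 1 of them, Kdm4b, had an unadjusted p under 0.05. Kdm3a, which removes methyl groups from lysine 9 of histone H3, was at 98.8 and 107 CPM in Mock and at 86.8 and 98.4 CPM in FeSO4 (log2 fold change -0.15 ± 0.08, SE, adjusted p = 0.201). Kdm4b, which acts on the same lysine in its trimethylated form, was at 72.0 and 73.3 CPM in Mock and at 61.3 and 65.2 CPM in FeSO4 (-0.20 ± 0.08, SE, adjusted p = 0.0736). It was called lower in some other fits, such as that with library size as the only scaling (adjusted p = 0.0202). Kdm4c, a close relative, had overlapping groups (38.2 and 45.7 CPM in Mock, 38.0 and 39.3 CPM in FeSO4). No member of this group had a positive value with all 4 libraries, but that of Kdm4c turned to 0.020 without Mock replicate 2.

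These 3 genes and the 4 collagen hydroxylases P4ha1, P4ha2, Plod1 and Plod2 encode enzymes that use iron and 2-oxoglutarate. Of these 7, 2 were higher (28.6%) and 1 was lower (14.3%), with a median log2 fold change of -0.12. Of the other 22 tested members, 10 were higher (45.5%) and 4 were lower (18.2%), with a median of 0.26. The shares of all genes tested were 10.9% and 9.17%. The difference between these 2 groups of members was not tested.

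Of the transcription factors and co-regulators, 2 rose, 1 fell and Bhlhe41 could not be tested. Mxi1, a repressor that opposes MYC, rose from 28.8 and 29.1 to 34.1 and 42.7 CPM (log2 fold change 0.41 ± 0.11, SE, adjusted p = 0.0121). Its exons overlap those of Gm10197, and its call was lost without FeSO4 replicate 2 (adjusted p = 0.244). Cited2, which competes with HIF for the coactivator p300, rose from 28.4 and 27.5 to 33.1 and 35.9 CPM (0.30 ± 0.10, SE, adjusted p = 0.0326). This was the least stable call of the 17, lost in 7 of 14 other fits. Bhlhe40, a repressor that activated T cells need for cytokine production, was at 436 and 471 CPM in Mock and at 392 and 376 CPM in FeSO4. Its decrease was small beside its level (-0.24 ± 0.06, SE, adjusted p = 0.0125), and the call was lost without Mock replicate 2 or FeSO4 replicate 2 (adjusted p up to 0.111). The gene overlaps exons of 0610040F04Rik.

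The remaining genes of growth control and stress held 0 higher and 1 lower of 6. Ddit4, an inhibitor of the growth kinase mTORC1, fell from 161 and 166 to 129 and 143 CPM (log2 fold change -0.27 ± 0.07, SE, adjusted p = 0.0120). Its call was lost without Mock replicate 2 or FeSO4 replicate 1 (adjusted p up to 0.204). Ankrd37, an ankyrin repeat protein, was at 1.68 and 2.41 CPM in Mock and at 3.03 and 3.73 CPM in FeSO4. Both FeSO4 libraries were above Mock, yet the gene was not called (0.73 ± 0.29, SE, adjusted p = 0.0912), and it shares exon positions with Lrp2bp and Ufsp2.

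Ndrg1, a stress-induced regulator of growth that also restrains T cell activation, was at 47.2 and 48.4 CPM in Mock and at 44.1 and 57.1 CPM in FeSO4. The FeSO4 libraries lay on either side of Mock. Its exons overlap Gm17035 and Gm2895. Ccng2, an unusual cyclin linked to cell cycle arrest, Wsb1, a subunit of a ubiquitin ligase, and Narf, a nuclear protein that binds prelamin A, had log2 fold changes of 0.05 to 0.08 with SE of 0.07 to 0.08. The exons of Narf overlap those of Foxk2. Without the TMM factors, with library size only, the value of Narf was -0.013.

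**Figure D3:**
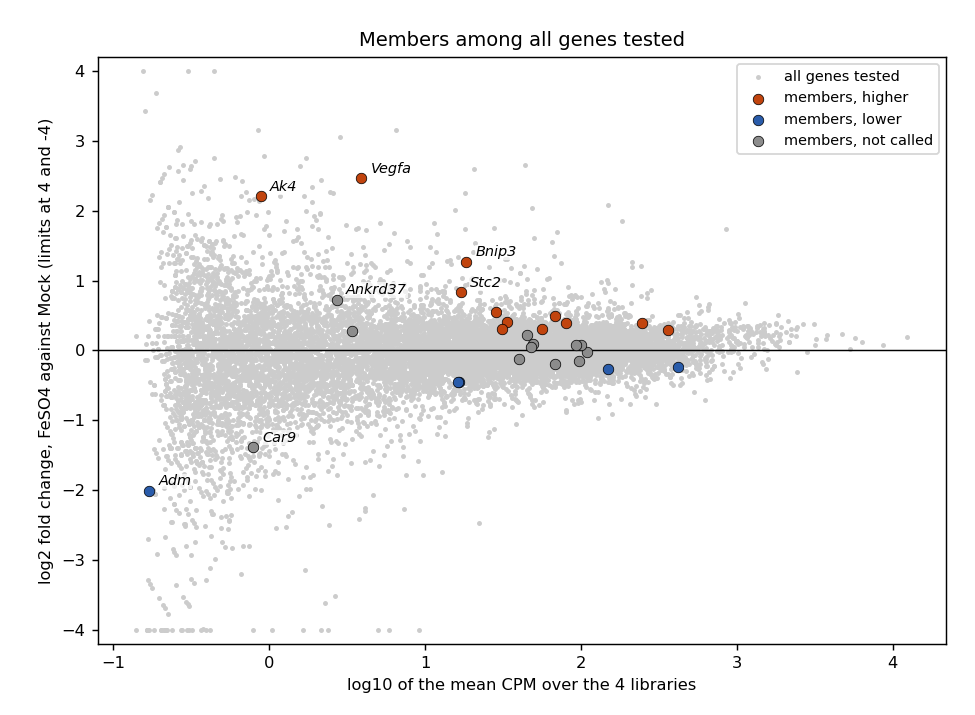
Log2 fold change of FeSO4 against Mock over the log10 of the mean CPM of the 4 libraries, for all 13732 genes tested (gray, values beyond the axis drawn at its limits) and the 29 tested members (colored by call). Vegfa, Ak4, Car9 and Adm lie where counts are low and all genes scatter widely, whereas Bnip3 (1.27) stands out at a mean above 10 CPM. Adm is drawn at its bound.

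The rest of the oxygen response gave a frame for these values. Of 10 regulators of HIF, 3 were higher (30%) and 1 was lower (10%), with a median log2 fold change of -0.0033. Among all genes tested, 10.9% were higher and 9.17% lower. Arnt2, counted among the 3, had 0 and 1 counts in Mock and 11 and 10 in FeSO4. It reached the filter minimum through FeSO4 alone, the group where it is high. Egln3, a prolyl hydroxylase and itself a HIF target, was at 31.2 and 35.0 CPM in Mock and at 92.5 and 102 CPM in FeSO4 (1.55 ± 0.09, SE). Hif1a, which encodes the α subunit HIF-1α, was at 121 and 139 CPM and at 180 and 186 CPM (0.49 ± 0.07, SE). Hif1an, the asparaginyl hydroxylase that blocks coactivator binding of the α subunit, was at 60.9 and 62.6 CPM and at 46.7 and 47.7 CPM (-0.39 ± 0.08, SE). The genes of the other α subunits, Epas1 (HIF-2α, -0.32 ± 0.39, SE) and Hif3a (0.28 ± 0.68, SE), had overlapping groups and were not called. The 20 glycolytic targets had 14 higher and 0 lower genes and a median of 0.40, and those of smallest p were Aldoc (2.25 ± 0.19, SE), Aldoa (0.77 ± 0.06, SE) and Tpi1 (0.76 ± 0.07, SE). Beside them the members outside glycolysis had a smaller share of higher genes (12 of 29) and 5 lower ones. No test of that difference was made.

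Of 21 further hypoxia-induced genes that are not members, 13 were tested. Of these, 3 were higher (23.1%) and 1 was lower (7.69%), where 10.9% and 9.17% of all genes were. Their median was 0.15. Nt5e, the ectoenzyme CD73 that makes adenosine, was lower (-0.46 ± 0.07, SE), and Hmox1, which breaks down heme, and Sap30, part of a histone deacetylase complex, were higher (0.68 ± 0.15 and 0.50 ± 0.12, SE). Among those that did not pass the filter were Lox, Loxl2, Edn1, Vldlr, Ppp1r3c, Tmem45a and Flt1.

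**Figure D4:**
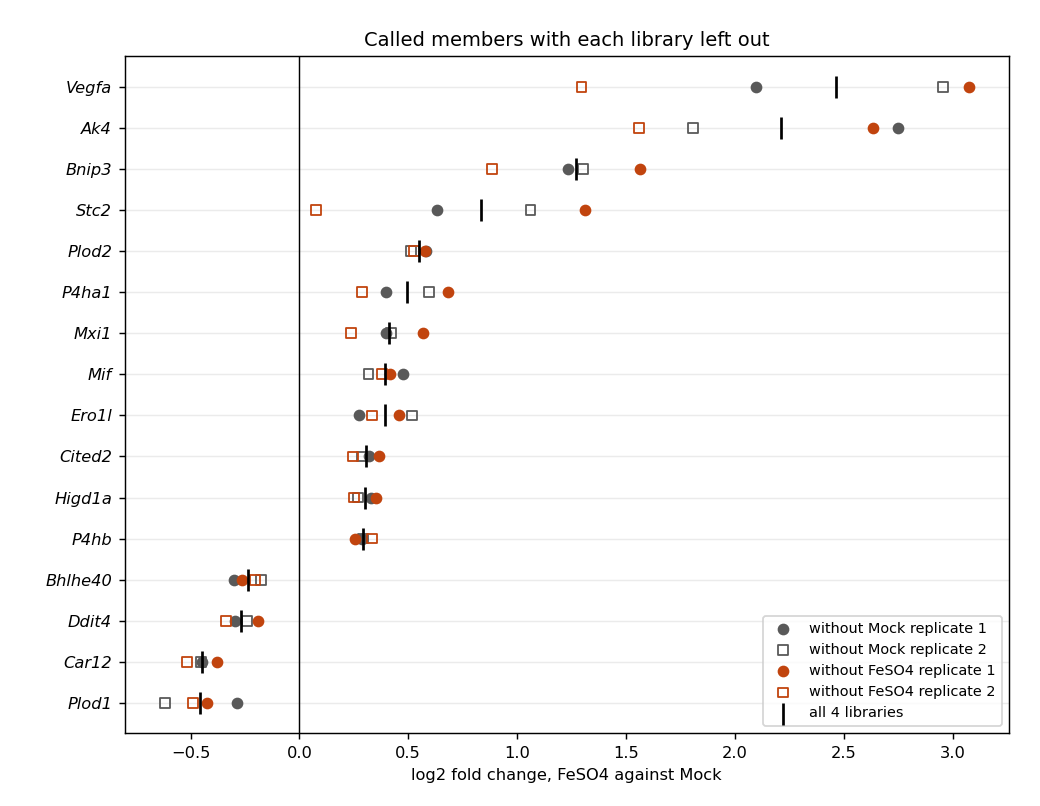
Log2 fold change of the called members other than Adm with all 4 libraries (black ticks) and with each library left out (gray for a Mock library, red for a FeSO4 library). All values keep their sign. The open red squares, without FeSO4 replicate 2, lie furthest to the left for Vegfa, Ak4, Bnip3, Stc2, P4ha1, Mxi1, Higd1a and Cited2. They also do so for the lower genes Car12 and Ddit4, where left means a larger decrease.

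Most members were higher in FeSO4 replicate 2 than in FeSO4 replicate 1. Of 28 members with reads in both FeSO4 libraries, 23 were higher in replicate 2 than in replicate 1 (82.1%, against 49.3% of all genes). Their median log2 ratio was 0.13, against -0.0025 over all genes. Of the other listed genes of the oxygen response, 30 of 43 (69.8%) were higher in FeSO4 replicate 2. Between the Mock libraries, 28 of 42 of those other genes (66.7%) were higher in replicate 2. At least 1.25-fold higher in replicate 2 were 8 of the 28 (28.6%), where 13.3% of all genes were. Between the Mock libraries, 16 of 29 members were higher in replicate 2 and 3 (10.3%) were at least 1.25-fold higher, where 10.5% of all genes were. In the other direction, Mock replicate 2 stood at 0.514 of Mock replicate 1 for Ak4, at 0.55 for Car9 and at 0.788 for Plod1, and FeSO4 replicate 2 at 0.668 of FeSO4 replicate 1 for Car9. Whether the gaps differ between the groups was not tested. The widest gaps between the FeSO4 libraries were those of Vegfa (3.43-fold), Stc2 (2.35-fold), Ak4 (2.11-fold) and Bnip3 (1.60-fold), the 4 members with the largest increases. FeSO4 replicate 2 enters both the gap and the fold change, so this match is partly built in. For Mif, Plod2 and P4hb the log2 ratios were 0.04, 0.05 and -0.08.

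**Figure D5:**
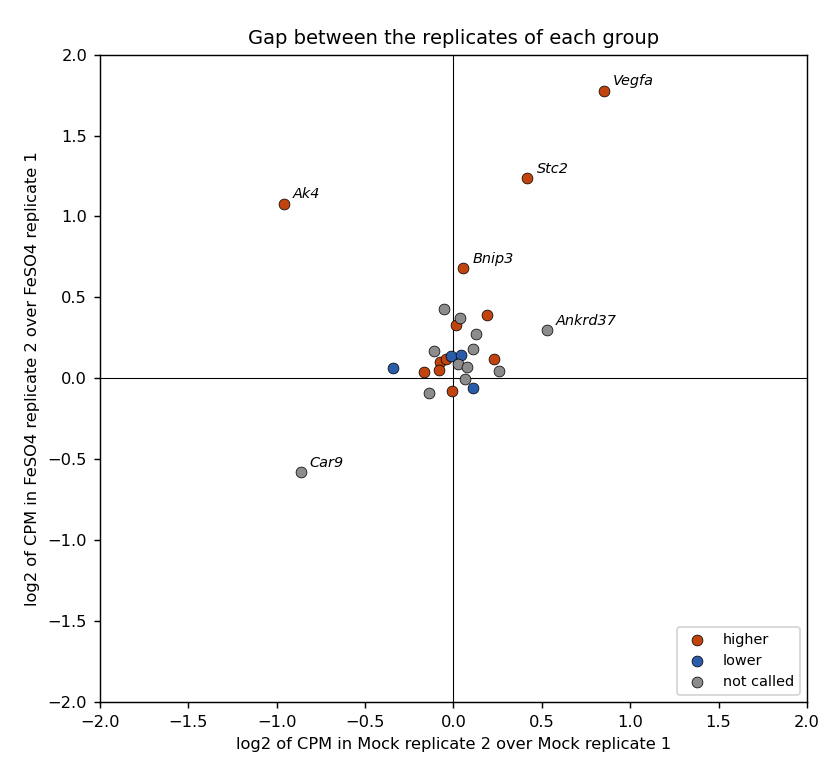
Log2 ratio of replicate 2 to replicate 1 in FeSO4 (vertical) and in Mock (horizontal) for the members with reads in all 4 libraries, colored by call. Most points lie above the horizontal line, and Vegfa, Stc2, Ak4 and Bnip3 lie highest. Replicates of 1 number are not taken as pairs.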

How the data were processed

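RNA was sequenced from 2 Mock and 2 FeSO4 iTreg libraries. The authors deposited raw read counts per Ensembl gene. Their methods name STAR and mm9. The submitters' processing notes list mm10, Trim Galore 0.6.7, STAR 2.7.9a and featureCounts, and the closing rows carry names of another counter. Strand setting and annotation are not given in the sources used here. Of the 47729 gene IDs, 14930 are absent from GENCODE M1 (mm9) and got no symbol (0.755% of gene reads). Positions and promoters are from RefSeq GRCm38.p6, exon lengths and overlaps from GENCODE M1. Rows of unassigned reads were left out (no feature 4.36 to 6.03%, ambiguous 3.78 to 3.91%, low quality 0.802 to 0.988%, unaligned 1.80 to 2.31%, several alignments 4.27 to 4.62% of the sum of all rows).

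Counts were tested with edgeR 4.0.16 in R 4.3.3 (filterByExpr, TMM, quasi-likelihood F test, Benjamini-Hochberg over 13732 genes), checked on simulated data. CPM use TMM-scaled library sizes. Limits of counts cover counting error only. The common biological coefficient of variation was 8.24%. Replicates exceeded sampling noise (chi-square per degree of freedom 11.4 in Mock, 9.02 in FeSO4). The methods speak of 2 pairs of libraries and 2 independent experiments, without saying which libraries form a pair. The text names all 30 members, the 3 genes of smallest p per other list, Arnt2, Epas1, Hif3a and some genes that did not pass the filter. The members and lists were chosen with earlier results of these data known. Alternatives were DESeq2 1.42.0, limma-voom (limma 3.58.1), other scalings, filters and thresholds, a replicate block and each library left out.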

Additional observations from a re-analysis of the deposited data

How the results depend on the processing

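At least 1 setting changed each of the member counts. With all 4 libraries, 12 members were higher, 5 lower and 2750 genes called. Leaving out 1 library gave 6 to 11 higher members, 1 to 3 lower members, medians of 0.058 to 0.28 and 1603 to 2357 called genes. Testing every gene with at least 1 count gave 4 higher, 0 lower and 828 called genes. An adjusted p under 0.01 gave 7, 0 and 1386, and the cutoffs of the study (p below 0.05 without adjustment and a log2 fold change of 0.5 or more either way) gave 6, 2 and 1428. DESeq2 gave 10 higher and 3 lower members, without Cited2, Plod1 and Stc2 and with no adjusted p for Adm. With library size only, the median was 0.16, all genes shifted to a median of -0.065, 35.3% of calls were higher against 54.2% with TMM, and the value of Narf was -0.013. Over the libraries left out in turn, signs changed for Bnip3l (-0.17 to 0.11, positive without Mock replicate 2 at 0.044 or FeSO4 replicate 1), Kdm4c (-0.25 to 0.020, positive without Mock replicate 2), Ndrg1 (-0.11 to 0.26) and Ccng2 (-0.0020 to 0.17), both negative without FeSO4 replicate 2, and none of these was called. The cause was not tested.

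The methods speak of pairs, but the labels do not say that a replicate number marks one. The deviations of same-numbered libraries correlated at 0.029 over all genes tested and at 0.22 over the 8521 genes of at least 10 CPM. With a replicate block, 13 members were higher, 7 lower and 3425 genes called, with Car9 (adjusted p = 0.047), Fam162a (0.036) and Kdm4b (0.037) gained and none lost. A robust estimate of the spread, an older quasi-likelihood method and the count over genes that reach the filter minimum in both groups were added after seeing the data. The first lost Vegfa and Stc2. Depth limits Adm, Ak4, Car9 and Bhlhe41, which rest on few counts.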
